A study of Schizosaccharomyces pombe with 12 samples.

Results

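Shelterin is the protein complex that coats telomeres, the ends of linear chromosomes, and keeps them from being handled as broken DNA. In fission yeast (Schizosaccharomyces pombe) Taz1 binds the double-stranded telomeric repeats and Pot1 the single-stranded overhang. Rap1 sits on Taz1, Poz1 bridges Rap1 to Tpz1, and Tpz1 holds Pot1 and Ccq1, the member that brings in telomerase and also takes part in silencing near chromosome ends. The transcripts of these 6 genes, taz1, rap1, poz1, tpz1, pot1 and ccq1, were followed over 4 groups of cells. Members were chosen by gene symbol, with the brightest probe set over the 12 arrays where a gene had several. All 6 of 6 were found among the 2896 S. pombe genes measured, each with 1 probe set of its own. The array also carries probe sets of another yeast whose genes share the names TAZ1, RAP1 and POT1, so the members were matched through the gene identifier and not through the name alone. The S. pombe loci are SPAC16A10.07C (taz1), SPBC1778.02 (rap1), SPAC19G12.13C (poz1), SPAC6F6.16C (tpz1), SPAC26H5.06 (pot1) and SPCC188.07 (ccq1).

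The series asks which genes depend on cohesin, the ring complex that holds sister chromatids together, and on its loader Mis4. Cells of genotype h- ura4+-pREP2-res1 mis4+ were compared with cells of genotype h- ura4+-pREP2-res1 mis4-367, where mis4-367 is a thermosensitive allele. Every group, the mis4+ controls included, was held in G1, which precedes DNA replication, by withdrawing thiamine so that a C-terminal fragment of Res1 was overproduced and took up the transcription factor Cdc10; proliferation stopped after 7 doublings. Cells of each strain were collected at 25 °C, where both strains grow, and after 2 h at 37 °C. The 4 groups are therefore mis4+ at 25 °C, mis4+ at 37 °C, mis4-367 at 25 °C and mis4-367 at 37 °C, each with 3 arrays from independent inoculates, 12 arrays in all. RNA came from whole cultures, so fewer cells of a type and less RNA per cell cannot be told apart.

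Values are log2 of the deposited probe-set intensity, and a log2 difference of 1 is a doubling. With arrays there is no read depth; precision is limited by how many were run. Median intensity over the S. pombe genes ran from 394 to 433 between arrays. One array stood apart: the deviations of replicate 3 of mis4+ at 37 °C from its group-mates had an SD over genes of 0.202, while the other 11 arrays had 0.065 to 0.134. Its rap1 value lay 0.29 above the mean of the other mis4+ arrays at 37 °C, so rap1 is given below with and without it. Genes expressed in h- (M-type) cells, mfm1, mfm2, mfm3, mam1 and mam2, summed to intensities of 4563 to 6848 on each array. The genes of the opposite mating type, map2 and map3, summed to 124 to 165 and were above the background intensity of 10.7.

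None of the members was near that background. Their mean signals lay between the 10.8th percentile of the measured genes (poz1) and the 59.1st (taz1), with rap1 at the 12.7th, pot1 at the 14.6th, ccq1 at the 31.7th and tpz1 at the 43.4th. These are brightness ranks of different probes and give no order of transcript abundance between the genes.

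**Figure D1:**
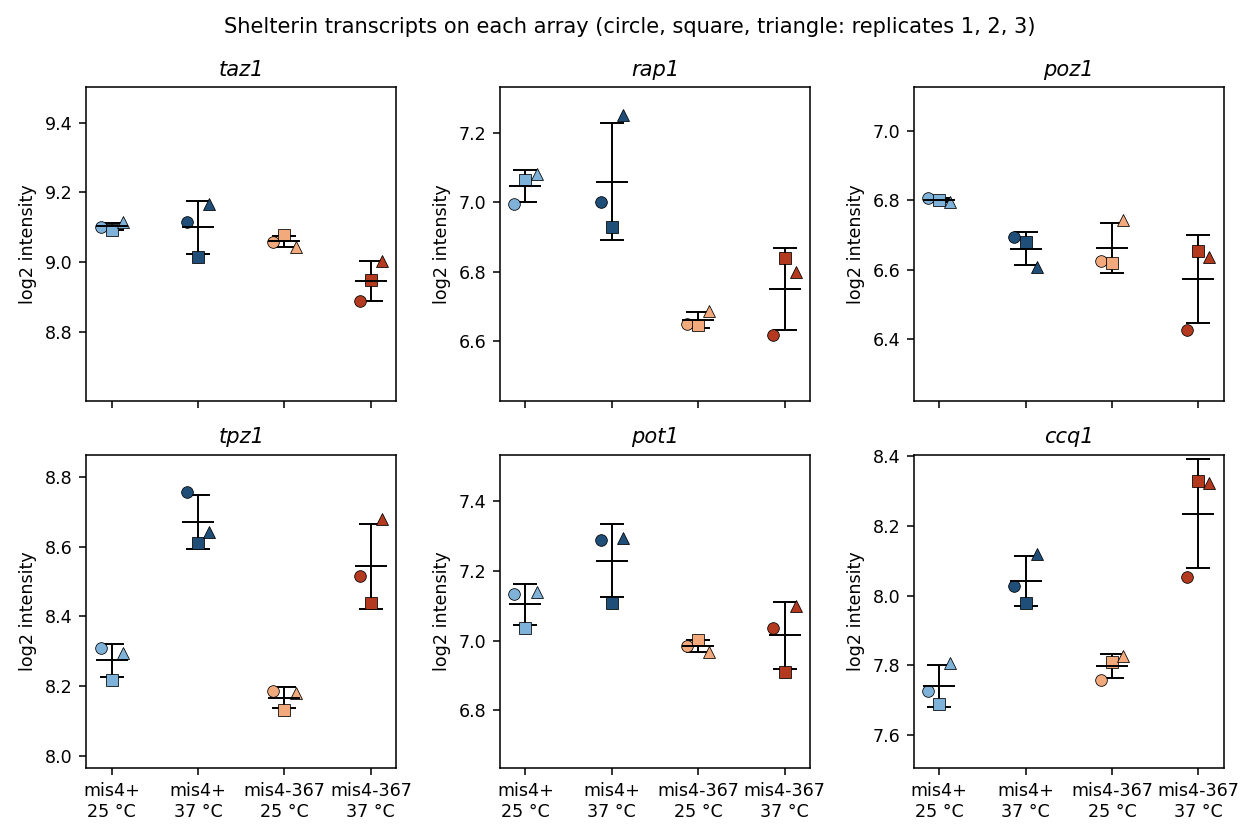
Log2 intensity of each shelterin gene on each of the 12 arrays, with the group mean (wide tick) and SD (bars, n = 3); every panel spans the same log2 range. The rap1 values of mis4-367 lie below all rap1 values of mis4+ at both temperatures, and tpz1 and ccq1 are higher at 37 °C than at 25 °C in both strains.

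In the unweighted fit on the deposited scale, the largest strain difference among the 6 members at each temperature was that of rap1, which encodes the protein linking Taz1 to the rest of the complex. In mis4+ its log2 intensity was 6.99, 7.06 and 7.08 at 25 °C and 7.0, 6.93 and 7.25 at 37 °C. In mis4-367 it was 6.65, 6.65 and 6.69 at 25 °C and 6.62, 6.84 and 6.80 at 37 °C. Every one of the 6 mis4-367 arrays was thus below every one of the 6 mis4+ arrays, and the temperatures overlapped within each strain. Of all genes, 1.80% were lower in all mis4-367 arrays than in all mis4+ arrays.

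At 37 °C the rap1 mean was 7.06 ± 0.17 in the mis4+ arrays and 6.75 ± 0.12 in the mis4-367 arrays (SD, n = 3 each). The difference of -0.31 ± 0.08 (SE), or 1.24-fold lower in mis4-367, had a 95% interval from -0.48 to -0.14 and passed the test (limma, adjusted p = 0.0409). It was the only 1 of the 6 members to pass at that temperature, where 7.18% of all genes passed. On the deposited scale 158 genes were lower and 50 higher, while re-centring each array on its S. pombe median gave 108 lower and 80 higher, and quantile-normalizing the S. pombe genes gave 88 each way. The call of rap1 was lost without replicate 3 of mis4+ at 37 °C (difference -0.21, adjusted p = 0.0777) and when replicate 1, 2 or 3 of mis4-367 at that temperature was left out (limma, adjusted p = 0.0901, 0.0977 and 0.0671). A fit of the 37 °C arrays alone gave adjusted p = 0.213, and array weights reduced the difference to -0.19 (adjusted p = 0.0388), smaller than those of pot1, tpz1 and ccq1 under these weights.

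At 25 °C, before the shift, the rap1 difference was as large, at -0.38 ± 0.08 (SE), or 1.31-fold lower in mis4-367, with a 95% interval from -0.56 to -0.21. The means were 6.66 ± 0.02 in mis4-367 and 7.05 ± 0.05 in mis4+ (SD, n = 3 each). It narrowly missed the threshold (limma, adjusted p = 0.0557), and 0 of the 6 members passed where 0.622% of all genes did (18 genes); 2 members, rap1 and poz1, and 329 genes had an unadjusted p under 0.05. Only 22 of the 2896 genes were lower in mis4-367 than rap1 was at 25 °C by the size of the difference, which puts rap1 at rank 23, and at 37 °C its rank was 109. The 25 °C difference passed when the 25 °C arrays were fitted alone (limma, adjusted p = 0.011), after re-centring (0.0219) and with array weights (0.00015). It was farther from the threshold after quantile normalization (-0.25, adjusted p = 0.130) and in the 6 leave-one-out fits (adjusted p from 0.0905 to 0.231).

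The strain difference averaged over both temperatures, a comparison added after these values were seen, uses 6 arrays per strain. For rap1 it was -0.35 ± 0.06 (SE), 1.27-fold lower in mis4-367, with adjusted p = 0.00477 (limma). In this comparison the 12 leave-one-out fits gave rap1 differences from -0.38 to -0.30 with adjusted p from 0.00223 to 0.0175. The fit that dropped mis4+ replicate 3 of the 37 °C set gave -0.30. The 9 other settings gave -0.35 to -0.23 with adjusted p from 0.00028 to 0.00593. The change of rap1 with temperature did not pass: 37 °C minus 25 °C was 0.01 in mis4+ (95% interval from -0.16 to 0.18) and 0.09 in mis4-367 (from -0.08 to 0.26). It has no settled direction, since quantile normalization gave -0.13 in mis4+ (limma, adjusted p = 0.0498) and array weights gave 0.15 in mis4-367 (adjusted p = 0.00804).

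**Figure D2:**
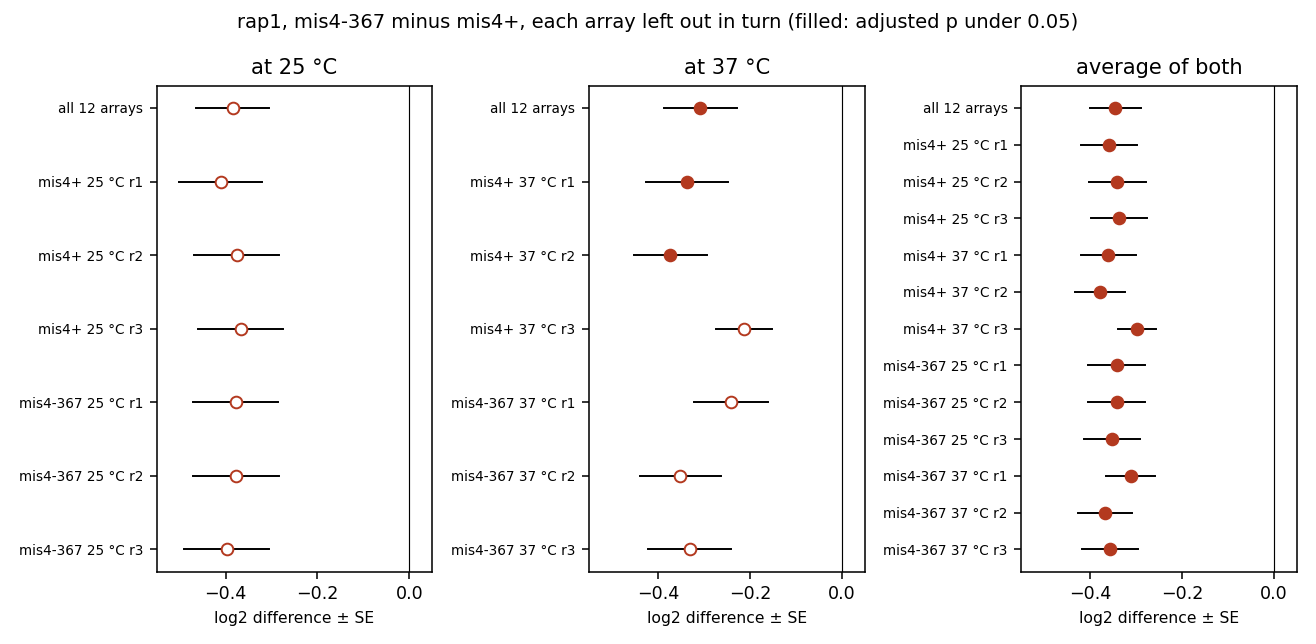
Log2 difference of rap1, mis4-367 minus mis4+, with its SE, in the fit of all 12 arrays (top of each panel) and with the named array left out; r1 to r3 are replicates 1 to 3. The average over both temperatures stayed between -0.38 and -0.30 and passed in every one of these fits, while at 37 °C alone the call was lost in 4 of the 6.

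For the average over both temperatures pot1, the gene of the protein that covers the single-stranded end, passed as well. Its log2 intensity was 7.13, 7.04 and 7.14 in mis4+ at 25 °C and 7.29, 7.11 and 7.29 in mis4+ at 37 °C. In mis4-367 it was 6.98, 7.0 and 6.97 at 25 °C and 7.04, 6.91 and 7.10 at 37 °C. The strains did not overlap within either temperature, mis4-367 being the lower. The average difference was -0.17 ± 0.04 (SE), 1.12-fold lower in mis4-367 (limma, adjusted p = 0.0308). With 2 of 6 members, rap1 and pot1, past this test, the background is 12.9% of all genes (307 lower and 68 higher; 91 lower and 98 higher after quantile normalization). The pot1 call was lost after quantile normalization (-0.08, adjusted p = 0.325), after re-centring (adjusted p = 0.0509) and in 7 of the 12 leave-one-out fits, with adjusted p up to 0.0728. Without replicate 3 of mis4+ at 37 °C, 2 members passed. The other 4 members did not pass on average: taz1 -0.10, poz1 -0.11, tpz1 -0.12 and ccq1 0.13. Their adjusted p values were 0.0767, 0.101, 0.0961 and 0.111 (limma). All 6 had an unadjusted p under 0.05, as did 932 of all genes. In the 9 other settings ccq1 gained the call in 3, and taz1, poz1 and tpz1 in 1 each.

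Taken by temperature, pot1 differed by -0.21 ± 0.06 at 37 °C (adjusted p = 0.0596) and by -0.12 ± 0.06 at 25 °C (adjusted p = 0.506; both SE, limma). The 37 °C difference passed with array weights (-0.27, adjusted p = 0.0179) and with mis4+ replicate 2 of the 37 °C set left out (-0.27, adjusted p = 0.0156), and after quantile normalization it was -0.13 (adjusted p = 0.219).

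The other DNA-binding member, taz1, was nearly level in 3 of the groups. It stood at 9.10, 9.09 and 9.11 in mis4+ at 25 °C, at 9.11, 9.02 and 9.17 in mis4+ at 37 °C and at 9.06, 9.08 and 9.04 in mis4-367 at 25 °C. In mis4-367 at 37 °C it was lowest, at 8.89, 8.95 and 9.0, below every array of the other groups. The difference between the strains at 37 °C was -0.15 ± 0.05 (SE, adjusted p = 0.0693, limma), and at 25 °C it was -0.04 (95% interval from -0.15 to 0.06). The former passed with array weights (-0.14, adjusted p = 0.0351) and with mis4+ replicate 2 of the 37 °C set left out (-0.19, adjusted p = 0.0204). The fall of taz1 from 25 °C to 37 °C within mis4-367, -0.11, had adjusted p = 0.0606 (limma). It passed in 4 of the 10 other settings (lowest adjusted p = 0.00395), re-centring (0.0158) and quantile normalization (0.0299) among them. Leave-one-out fits gave 0.0402 to 0.187.

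The bridging subunit genes poz1 and tpz1 did not pass between the strains at either temperature on the deposited scale. For poz1 the arrays read 6.81, 6.80 and 6.79 in mis4+ at 25 °C and 6.69, 6.68 and 6.61 in mis4+ at 37 °C. In mis4-367 they read 6.62, 6.62 and 6.74 at 25 °C and 6.43, 6.65 and 6.64 at 37 °C. The highest group of poz1 was mis4+ at 25 °C, and the other 3 groups overlapped. Its strain difference was -0.14 at 25 °C (95% interval from -0.27 to -0.0033, adjusted p = 0.423, limma) and -0.09 at 37 °C (from -0.22 to 0.05), and both turned positive after quantile normalization (0.0030 and 0.04), while array weights gave -0.16 at 25 °C, past the threshold (adjusted p = 0.0139). The direction of poz1 thus depended on the setting. The strain difference of tpz1 was -0.11 at 25 °C (95% interval from -0.24 to 0.03) and -0.13 at 37 °C (from -0.26 to 0.01), and the latter passed with array weights (-0.22, adjusted p = 0.0403).

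On the deposited scale, and in contrast to the other 5 members, ccq1 was above 0 in both strain differences. At 37 °C it stood 0.19 ± 0.07 (SE) higher in mis4-367 (adjusted p = 0.102, limma), a value larger than that of 96.5% of all genes. It passed after re-centring (0.23, adjusted p = 0.0348), after quantile normalization (0.29, adjusted p = 0.0227) and with array weights (adjusted p = 0.0166). It also passed with mis4-367 replicate 1 of the 37 °C set left out (0.28, adjusted p = 0.026). With the 37 °C arrays alone it had adjusted p = 0.298, and without another array adjusted p up to 0.296. For ccq1 that replicate lay 0.27 below the average of its 2 group-mates. At 25 °C the difference was 0.06 (95% interval from -0.10 to 0.21).

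**Figure D3:**
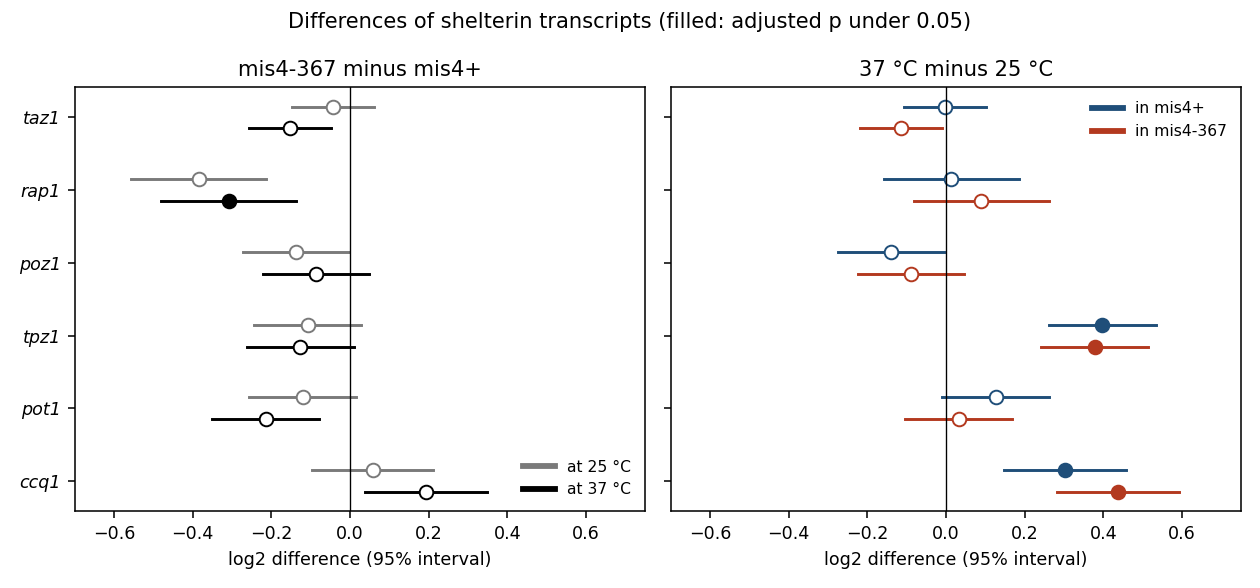
Log2 differences of the 6 genes with 95% intervals, between strains (left, mis4-367 minus mis4+) and between temperatures (right, 37 °C minus 25 °C); filled points passed at adjusted p under 0.05. Between strains rap1 lies farthest from 0 at both temperatures, and between temperatures tpz1 and ccq1 are the filled points in both strains.

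The strain differences at 25 °C and at 37 °C rest on different arrays. All 6 members had the same sign at both temperatures, 5 lower and ccq1 higher in mis4-367, where 72.0% of all genes had the same sign and 51.1% were lower at both. The median over the members was -0.11 at 25 °C and -0.14 at 37 °C, beside -0.03 and -0.05 for all genes. These signs and medians hold for the deposited scale. After quantile normalization poz1 was above 0 at 25 °C (0.0030) and at 37 °C (0.045). A difference of 0.3 or more downward at both temperatures was found for 29 genes (1.0%), rap1 among them. At 25 °C, 5 of the 6 members did not overlap between the strains, against 32.7% of all genes, and at 37 °C 3 of 6 did not, against 24.6%.

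**Figure D4:**
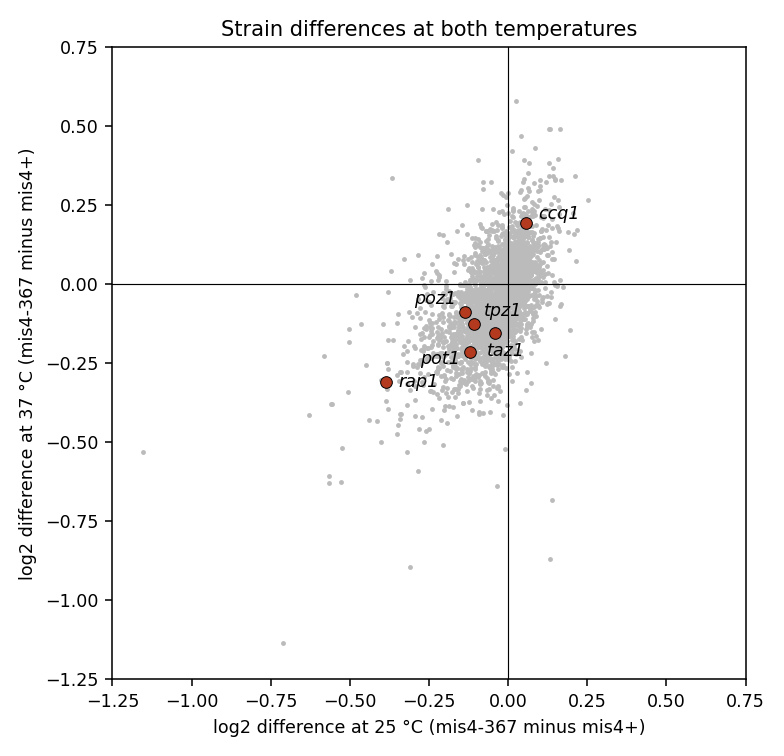
Log2 difference between mis4-367 and mis4+ at 25 °C (horizontal) and at 37 °C (vertical), with 1 point per gene for 2896 genes and the 6 shelterin genes in red. rap1 lies at -0.38 and -0.31, away from the other members, and ccq1 lies in the opposite quadrant at 0.06 and 0.19.

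The opposite placement of rap1 and ccq1 can be read within each array, where a factor that scales all genes of the array alike cancels. An effect that depends on brightness does not cancel, since ccq1 is the brighter of the pair. The log2 value of rap1 minus that of ccq1 was -0.73, -0.62 and -0.73 in mis4+ at 25 °C and -1.11, -1.16 and -1.14 in mis4-367 at 25 °C. At 37 °C it was -1.03, -1.05 and -0.87 in mis4+ and -1.44, -1.49 and -1.52 in mis4-367. The strains were apart at both temperatures, by -0.44 at 25 °C and -0.50 at 37 °C. This pair was picked after the values were seen and was not tested; it shows unequal change and not which of the genes moved.

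Transcripts of cells outside G1 differed between the strains in the same direction as rap1. Of 4 marker genes, cdc13 (-0.32), slp1 (-0.50) and cdc25 (-0.27) passed and were lower in mis4-367 at 37 °C, where 7.18% of all genes passed. There plo1 was at -0.20 and did not pass. At 25 °C all 4 were below 0, from -0.09 (cdc13) to -0.27 (slp1), and 0 passed, where 0.622% of all genes did. Their summed intensity was 1971 to 2028 in mis4-367 and 2316 to 2719 in mis4+ at 37 °C. At 25 °C it was 2320 to 2519 in mis4-367 and 2634 to 2763 in mis4+. All 4 were above background in every group, and their part in the rap1 difference was not tested. The same holds for res1, the gene used for the arrest, whose transcript was 0.40 higher in mis4-367 at 37 °C (limma, adjusted p = 0.0318) and 0.16 higher at 25 °C (adjusted p = 0.558), and for the 5 M-type genes. Of these, mfm1 (-0.89) and mfm3 (-0.62) were lower in mis4-367 at 37 °C, where mam1 (-0.17), mam2 (-0.29) and mfm2 (0.14) did not pass, so 2 of 5 were called beside 7.18% of all genes. At 25 °C mfm3 (-0.53) was the 1 of 5 that passed. The summed M-type intensity at 37 °C overlapped, at 4563 to 4930 in mis4-367 and 4733 to 5094 in mis4+. This sum mostly follows mfm2, the brightest of the 5 (mean log2 11.79 in mis4-367 and 11.65 in mis4+, against 8.50 and 9.39 for mfm1). The transcript of mis4 itself differed by -0.07 at 37 °C (adjusted p = 0.541) and by -0.13 at 25 °C (adjusted p = 0.525). Meiotic transcripts were also examined because rap1 acts at meiotic telomeres: of dmc1, mei4, spo5 and rec8, dmc1 was lower in mis4-367 at 37 °C (-0.43, adjusted p = 0.0390, limma), a call lost after quantile normalization (-0.33, adjusted p = 0.0664), and mei4 and rec8 were below background there. These 4 summed to 114 to 144 in mis4-367 and 152 to 178 in mis4+ at 37 °C. At 25 °C, where mei4, spo5 and rec8 were below background, they summed to 85.9 to 94.3 in mis4-367 and 95.6 to 115 in mis4+, and their part in the result was not tested either.

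The shift to 37 °C raised tpz1 and ccq1, the genes of the central scaffold and of its telomerase-recruiting partner, in both strains. In mis4+ tpz1 read 8.31, 8.22 and 8.29 at 25 °C and 8.76, 8.61 and 8.64 at 37 °C. In mis4-367 it read 8.19, 8.13 and 8.18 at 25 °C and 8.51, 8.44 and 8.68 at 37 °C. All 6 arrays at 37 °C were above all 6 at 25 °C. Within a strain such separation was common: 36.4% of all genes in mis4+ and 39.6% in mis4-367 were higher on every array at 37 °C. The rise was 0.40 ± 0.06 (SE), or 1.32-fold, in mis4+ (adjusted p = 0.000196) and 0.38 ± 0.06, or 1.30-fold, in mis4-367 (adjusted p = 0.000258, limma).

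For ccq1 the arrays read 7.73, 7.69 and 7.81 at 25 °C and 8.03, 7.98 and 8.12 at 37 °C in mis4+. In mis4-367 they read 7.76, 7.81 and 7.83 at 25 °C and 8.05, 8.33 and 8.32 at 37 °C. Again no array at 25 °C reached any array at 37 °C, beside the shares of 36.4% and 39.6% of all genes within mis4+ and mis4-367. The rise was 0.30 ± 0.07 (SE), or 1.23-fold, in mis4+ (adjusted p = 0.00328) and 0.44 ± 0.07, or 1.35-fold, in mis4-367 (adjusted p = 0.000227, limma). The calls of tpz1 and ccq1 held in each of the 10 other settings and each of the 6 leave-one-out fits run per strain. Some of these settings could hardly move a member.

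The other 4 members did not pass for the shift in either strain. The count of 2 of 6 stands beside 55.3% of all genes past the test in mis4+ and 56.4% in mis4-367, so a response of some members to the shift is no more than is found for genes at large. Of all genes, 33.4% passed and were higher in each strain. In mis4+ 633 were lower and 968 higher, and after quantile normalization 834 and 847. The rise of tpz1 was larger than the change of 85.7% of the genes in mis4+ and of 83.5% in mis4-367. For ccq1 these shares were 79.5% and 86.6%. For pot1 the change was 0.13 in mis4+ (95% interval from -0.01 to 0.26) and 0.03 in mis4-367 (from -0.10 to 0.17), and for poz1 it was -0.14 (from -0.27 to -0.01) and -0.09 (from -0.22 to 0.05). Quantile normalization placed poz1 past the threshold in both strains (-0.32, adjusted p = 0.000559, and -0.28, adjusted p = 0.00142), and it turned pot1 negative in both (-0.0055 and -0.12). In mis4+ pot1 passed as higher in 1 of the 10 other settings (limma, adjusted p = 0.0442) and in 1 of the 6 leave-one-out fits (adjusted p = 0.0194).

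The response to the shift did not differ between the strains for any member by its own test. The difference of responses, mis4-367 minus mis4+, ran from -0.11 (taz1, 95% interval from -0.26 to 0.04) to 0.14 (ccq1, from -0.08 to 0.35), with a smallest adjusted p of 0.824 (limma). None of the 6 had an unadjusted p under 0.05 either. Among all genes 0% passed (0 of 2896), and 141 had an unadjusted p under 0.05. For rap1 the value was 0.08 with an interval from -0.17 to 0.32.

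Replicates were farther apart after the shift. In all 12 of 12 pairs of a member and a strain the SD at 37 °C exceeded that at 25 °C, against 75.9% of the pairs over all genes. The median SD of the members was 0.120 in mis4-367 at 37 °C, where it was 0.065 for all genes. It was 0.077 against 0.110 in mis4+ at 37 °C, 0.027 against 0.039 in mis4-367 at 25 °C and 0.047 against 0.045 in mis4+ at 25 °C. The fit used 1 spread for all 4 groups.

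When the group means of a gene are put in order, only some neighbours in that order were apart beyond their ranges. Separate ranges were common over all genes. Between 2 groups they ran from 24.6% (the strains at 37 °C) to 70.8% (the shift in mis4-367). For rap1 the order was mis4+ at 37 °C, mis4+ at 25 °C, mis4-367 at 37 °C and mis4-367 at 25 °C, with the ranges separate only at the step from mis4+ to mis4-367. For tpz1 it was mis4+ at 37 °C, mis4-367 at 37 °C, mis4+ at 25 °C and mis4-367 at 25 °C, and the first 2 overlapped while the other steps were separate. The order of ccq1 was mis4-367 at 37 °C, mis4+ at 37 °C, mis4-367 at 25 °C and mis4+ at 25 °C, separate only between the temperatures. Neighbouring groups of pot1, ordered like those of rap1, overlapped at each step. Those of taz1 were separate only at the last step, from mis4-367 at 25 °C to mis4-367 at 37 °C, and those of poz1 only at the first, from mis4+ at 25 °C to mis4-367 at 25 °C.

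Of 43 other genes that act at telomeres, 36 were measured. Between the strains 0 of 36 passed at 37 °C or at 25 °C (limma), where 7.18% and 0.622% of all genes did. An unadjusted p under 0.05 was found for 10 and 4 of the 36, beside 850 and 329 of all 2896 genes. Their median was -0.08 at both temperatures. For the average over both temperatures 6 of 36 passed (16.7%), near the 12.9% of all genes. Lower in mis4-367 were stn1, whose protein caps the single-stranded end (-0.18), the checkpoint kinase genes rad3 (-0.20) and tel1 (-0.21), rad26, the partner of Rad3 (-0.16), and clr2 of the silencing complex SHREC (-0.20). Higher was bqt4, which anchors telomeres to the nuclear envelope (0.21). Of these 6 calls only that of tel1 was kept after both re-centring and quantile normalization. The telomerase genes trt1, the reverse transcriptase (-0.01), and est1 (-0.11) did not pass, and neither did rif1, the telomere length regulator (-0.02).

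The shift moved many of the same telomere genes. In mis4+ 15 of 36 rose, 5 fell and 16 did not pass (55.6% called, against 55.3% of all genes), and in mis4-367 15 rose, 7 fell and 14 did not pass (61.1%, against 56.4%). The end-processing list held the largest changes: pku70 rose by 0.97 in mis4+ and 1.02 in mis4-367, and pku80 by 0.53 and 0.65. They encode the Ku proteins, which bind DNA ends. In the same list rad26 fell by 0.86 and 0.99. Among telomere-repeat-binding factors tbf1 rose (0.58 in mis4+ and 0.54 in mis4-367) and teb1 rose (0.47 and 0.55), while the helicase gene pfh1 fell by 0.30 and 0.33.

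In the anchoring list bqt4 fell by 0.58 in mis4+ and 0.56 in mis4-367, and lem2, an inner nuclear membrane protein gene, rose by 0.55 and 0.49. Transcripts of bqt3 fell by 0.36 in mis4+ (limma, adjusted p = 0.000805). In mis4-367 the bqt3 mean was 9.27 at 25 °C and 8.74 at 37 °C, a larger change than that of lem2 there. The meiotic bouquet gene bqt1 rose by 0.70 and 0.66, a call that quantile normalization removed in mis4+ (0.31, adjusted p = 0.0815). Its signal was close to the background of log2 3.42. The bqt1 means were below it at 25 °C (2.94 in mis4+ and 3.01 in mis4-367) and little above it at 37 °C (3.64 and 3.67). Est1, a telomerase subunit, rose at the transcript level by 0.42 and 0.41. For trt1 the change was 0.12 in mis4+ (adjusted p = 0.147) and 0.23 in mis4-367 (adjusted p = 0.0124), the latter call lost after quantile normalization (adjusted p = 0.0859). Transcripts of stn1 rose by 0.21 in mis4+ and 0.26 in mis4-367, a call that quantile normalization removed in mis4+ (adjusted p = 0.0745). Of the SHREC genes, whose complex works with Ccq1, mit1 rose by 0.46 and 0.64. In mis4+ clr3 rose by 0.28, and in mis4-367 its change was 0.12 (adjusted p = 0.191). Transcripts of clr2 rose by 0.21 and 0.25, calls that quantile normalization removed in both strains (adjusted p = 0.177 and 0.0515), and clr1 rose in mis4-367 (0.27), a call also removed by it (adjusted p = 0.0735).

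**Figure D5:**
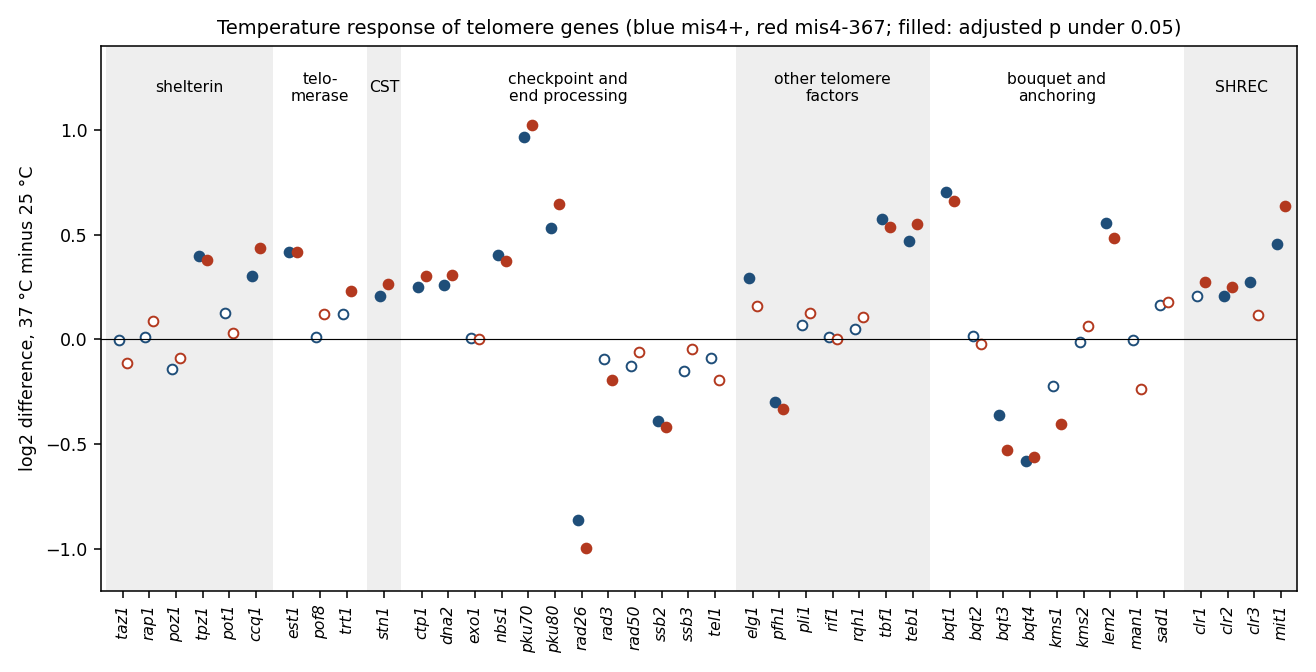
Log2 difference between 37 °C and 25 °C in mis4+ (blue) and mis4-367 (red) for the 6 shelterin genes and 36 other telomere genes by list; filled points passed at adjusted p under 0.05. Among shelterin genes tpz1 and ccq1 are filled; pku70 reaches 0.97 and 1.02 and rad26 lies at -0.86 and -0.99.

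Genes next to the members on the chromosome, by gene order in the reference table, were read where they had a probe set (9 of 12 neighbours). Beside tpz1 lies rif1, which changed by 0.01 in mis4+ and 0.00 in mis4-367 with the shift, while tpz1 rose. Beside taz1 lies nse2, a gene of the Smc5-Smc6 complex, which rose by 0.53 in both strains. Both neighbours of ccq1 fell with the shift in mis4-367, where ccq1 rose: ubp5 by 0.25 (adjusted p = 0.0116) and srp54 by 0.30 (adjusted p = 0.0337, limma). In mis4+ they did not pass (-0.07 and -0.11). The other neighbours past the test for the shift were its3 beside poz1, which fell by 0.31 in mis4-367, and zuo1 beside rap1, which fell by 0.35 in mis4+. Of all genes, 55.3% passed for the shift in mis4+ and 56.4% in mis4-367, so calls among neighbours are common for genes at large. Between the strains zuo1 was at 0.00 between the strains at 25 °C and at 0.16 at 37 °C (adjusted p = 0.282). Of the 9 neighbours, its3 also passed between the strains at 37 °C (-0.31, adjusted p = 0.0232), where 7.18% of all genes passed.

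The genes whose 12 array values were most like each member by Pearson's r, among 2878 other genes above background, are given as a description, since the arrays fall into groups that all genes share. For rap1 they were alp6 (r = 0.930), mmm1 (0.929) and ask1 (0.925). For pot1 they were mug56 (0.939), vps38 (0.923) and mrp51 (0.918), and for taz1 atg2 (0.946), php5 (0.935) and ufd1 (0.934). Values of r for poz1 were lower, with mis17 (0.886), ppk8 (0.864) and git11 (0.853). The genes nearest tpz1 were mis6 (0.969), tra2 (0.968) and ubp4 (0.966), and those nearest ccq1 were sds22 (0.977), set7 (0.975) and grx1 (0.967). No member was among the 3 nearest genes of another member.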

How the data were processed

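The authors deposited 1 intensity per array and probe set, made by RMA per the submitters' processing notes. RMA corrects background, quantile-normalizes arrays and summarises probes; the values are on a linear scale, up to 12169, and the sources used here do not give the step that returned them from log2. Of 10928 probe sets, 2914 matched 1 S. pombe gene by gene identifier, giving 2896 genes. Background is the 95th percentile of the 2601 probe sets of the other species (log2 3.42).

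Differences were fitted on log2 values with limma 3.58.1 in R 4.3.3, in 1 fit of 4 group means over 12 arrays, with Benjamini-Hochberg adjustment over all 2896 genes and a threshold of 0.05; the fit was tested on simulated data. Other scalings, background and probe-set rules, blocks, array weights, eBayes settings, the compared groups alone and leaving out each array were tried as alternatives. Passing genes are said to have changed. Figures used matplotlib 3.10.9.

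All 6 members are named. Other telomere genes came from fixed lists: those past a strain test, and up to 3 per list for the shift (clr1 and bqt3 were added after their values were seen). Members and lists were chosen with earlier results of these data known. Same-numbered arrays of different groups did not deviate together in every pair (correlations from -0.38 to 0.23), so the number was not used as a block. No gene sequence or promoter was used here, and the promoter motif search that had been planned was not run.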

Additional observations from a re-analysis of the deposited data

How the results depend on the processing

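Settings other than the reported one moved the number of shelterin genes past the test. Counts over all 2896 genes under the same setting are given in brackets for part of the settings. Between the strains at 37 °C 1 member passed in the reported fit (208 genes). After re-centring 2 passed (80 genes higher and 108 lower), and 2 after quantile normalization (88 each way). With the replicate block 2 passed, with array weights 5 (474 genes) and with only the compared groups 0 (10 genes). Leaving out 1 array gave 0 to 3 members (22 to 566 genes). At 25 °C 0 members passed in the reported fit (18 genes). After re-centring 1 passed (0 genes higher and 19 lower), and 1 with the replicate block. With array weights 2 passed (496 genes), and with only the compared groups 1. Leave-one-out gave 0 members throughout (5 to 14 genes). For the average of both temperatures array weights gave 6 in place of 2 (951 genes in place of 375), and leave-one-out 1 to 3 (163 to 640 genes). For the shift 2 members passed in each strain (1601 genes in mis4+ and 1633 in mis4-367). Quantile normalization gave 4 members in each strain (847 genes higher and 834 lower in mis4+, 828 and 837 in mis4-367). Array weights gave 4 members in mis4-367. Leave-one-out gave 2 to 3 members in each strain (1357 to 1734 genes in mis4+ and 1439 to 1581 in mis4-367). For the difference of responses every setting and every leave-one-out fit gave 0. With the replicate number as a fixed block rap1 passed at 25 °C (adjusted p = 0.0395) and pot1 at 37 °C (adjusted p = 0.043), and no other member changed its call.

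Signs turned where the differences were small. After quantile normalization poz1 was at 0.045 between the strains at 37 °C, 0.0030 at 25 °C and 0.024 on average; for the shift rap1 was at -0.13 in mis4+ and -0.094 in mis4-367 and pot1 at -0.0055 and -0.12. For the shift in mis4+ rap1 was at -0.012 after re-centring and -0.061 with array weights, and pot1 in mis4-367 was at -0.028 with array weights. Leave-one-out ranges that crossed 0 were, for the shift in mis4+, -0.083 to 0.078 (rap1) and -0.037 to 0.039 (taz1), for pot1 in mis4-367 -0.010 to 0.084, and for the difference of responses of tpz1 -0.086 to 0.034. The cause was not tested. Of 636 member values under an alternative, 569 kept direction and side of the threshold, 14 lost and 35 gained the call, and 18 changed sign. Part of the 569 was fixed in advance, because some alternatives could hardly move a member. Each member has 1 probe set, so the mean over probe sets is the same value. Leaving out genes below background kept 2879 of 2896 genes. A random block for arrays of the same strain and replicate number had a correlation of 0.0082.

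Over all genes, 474 passed at 37 °C with array weights and 10 with only the compared groups, in place of 208 (leave-one-out 22 to 566). At 25 °C 496, 154 and 3 passed with array weights, the compared groups and quantile normalization, in place of 18 (5 to 14). On average 951 passed with array weights and 189 after quantile normalization, in place of 375 (163 to 640). For the difference of responses, 2 genes passed with array weights and 1 without replicate 2 of mis4-367 at 25 °C, in place of 0.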
